A study of Mus musculus with 8 samples.

Results

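Chemokine and chemoattractant receptors are the seven-transmembrane proteins through which macrophages sense the gradients they migrate along. The 9 receptor genes described here, Ccr1, Ccr2, Cx3cr1, Cxcr4, Fpr1, Fpr2, Ccrl2, Cmklr1 and Ackr3, were taken by their symbols from the 54532 genes of the count table, where each symbol occurred once. The libraries, 4 from WT and 4 from Gsdmd-/- mice, hold RNA of bone marrow-derived macrophages (BMDMs) after 6 days of differentiation with M-CSF and with no treatment. The marrow donors were described as female C57BL/6J mice of 6–8 weeks, with no separate statement of sex, age or strain for the Gsdmd-/- mice. The WT mice were bought and the Gsdmd-/- mice were a gift from another laboratory kept in the study's own facility. The Gsdmd allele was not described further, and whether WT and Gsdmd-/- mice were littermates or each library came from a separate mouse was not stated. Colony and genotype therefore cannot be told apart, and the p-values measure only the spread between these libraries, which may be technical.

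Most of these receptors couple to inhibitory G proteins, whose released beta-gamma subunits activate phosphoinositide 3-kinase and Rac and so polarize the moving cell. CCR1 and CCR2 are receptors for inflammatory CC chemokines, and CCR2 with its ligand CCL2 brings monocytes out of the bone marrow. CX3CR1 binds fractalkine and marks patrolling monocytes and several tissue macrophages, and CXCR4 binds CXCL12, which retains cells in the marrow. FPR1 and FPR2 sense formylated bacterial peptides and annexin A1, and CMKLR1 is the signaling receptor for chemerin. CCRL2 and ACKR3 are atypical receptors that present or scavenge ligands (chemerin for CCRL2, CXCL12 for ACKR3) without classical G protein signaling.

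Total counts lay between 14935114 and 16794810 per library, so a count of 0, which allows up to 3 counts, corresponded to at most 0.177 to 0.199 CPM (counts in 1000000 counts of the library, whose total was scaled with TMM). Such limits cover counting error only. Expression of Gsdmd was 75.3 ± 14.1 CPM in WT and 16.2 ± 1.56 CPM in Gsdmd-/- libraries (SD, n = 4 each), with no overlap between the genotypes (edgeR quasi-likelihood test, log2FC, the log2 fold change of Gsdmd-/- over WT, -2.22, adjusted p = 4.665e-05). The macrophage markers Lyz2 and Cd68 were abundant in all 8 libraries, with a mean of 13505 and 528 CPM per kilobase of exon. WT 2 and WT 3 stood apart from the other 6 libraries on the first principal component of log2 CPM, which held 43.6% of the variance (scores of 45.4 and 38.8, against -25.9 to -7.19).

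To show the DNA next to the start sites, the 250 bases upstream of the RefSeq start (GRCm38.p6) were taken for Ccr1 and Cmklr1, the most abundant members, and for Fpr2, a member near the limit of detection. These 3 were also chosen because they hold GAGGAA, the core of the sites bound by PU.1, the ETS factor that myeloid cells depend on, which the windows of the other 6 members, Cxcr4 and Ccrl2 included, do not. The Ccr1 window is chr9:123968693-123968942 on the minus strand, the Cmklr1 window chr5:113643604-113643853 on the minus strand and the Fpr2 window chr17:17887574-17887823 on the plus strand. None of these bases lies in a GENCODE M21 exon of the gene, and the Cmklr1 window lies within the longer span that GENCODE gives this gene. Capitals mark matches on either strand to GAGGAA and, in Fpr2, also to the STAT motif TTCNNNGAA, and the matches do not overlap.
Ccr1: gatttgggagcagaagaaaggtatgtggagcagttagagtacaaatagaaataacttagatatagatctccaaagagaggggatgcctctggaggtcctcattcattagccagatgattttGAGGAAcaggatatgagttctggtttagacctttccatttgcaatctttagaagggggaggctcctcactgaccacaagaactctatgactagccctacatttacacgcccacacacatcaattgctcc
Cmklr1: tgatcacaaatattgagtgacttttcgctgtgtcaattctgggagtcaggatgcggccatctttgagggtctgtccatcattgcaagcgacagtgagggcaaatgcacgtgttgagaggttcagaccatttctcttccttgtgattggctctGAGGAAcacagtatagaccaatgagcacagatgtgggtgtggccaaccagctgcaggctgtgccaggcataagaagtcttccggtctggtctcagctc
Fpr2: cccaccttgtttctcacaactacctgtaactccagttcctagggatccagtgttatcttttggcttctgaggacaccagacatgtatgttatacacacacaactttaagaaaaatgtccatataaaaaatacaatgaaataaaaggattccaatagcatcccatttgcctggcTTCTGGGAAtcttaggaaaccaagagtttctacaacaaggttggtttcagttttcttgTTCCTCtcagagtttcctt
Of 32851 windows of this length in the RefSeq table, 23.3% held GAGGAA, against 3 of the 9 members, and 7.02% held TTCNNNGAA. The AP-1 motif TGANTCA (6.75% of windows) was in no window of the 9 members, and the C/EBP motif TTGCNNAA (9.56% of windows) was in that of Ackr3. These matches describe the letters in the windows and are not evidence of binding.

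The receptors differed in level by far more than the libraries differed from each other. Per kilobase of exon, Ccr1 had 121 ± 16.4 CPM, Cmklr1 30.3 ± 7.63, Cxcr4 15.4 ± 1.41, Ccrl2 3.93 ± 0.554 and Ccr2 0.816 ± 0.620 CPM (mean ± SD, n = 8 libraries). The order Ccr1, Cmklr1, Cxcr4, Ccrl2 held in 8 of 8 libraries, and the ranges of neighbours in this order did not overlap down to Ccr2. Below Ccrl2 the order was not resolved throughout, since Ccr2 exceeded Fpr2 in 6 of 8 libraries, Fpr2 exceeded Fpr1 in 7 and Fpr1 exceeded Cx3cr1 in 5, each with overlapping ranges. By mean CPM per kilobase, Ccr1 ranked 356th and Cmklr1 1484th of the 54409 genes with a known exon length. Ccr1 and Cmklr1 together held most of the members' summed CPM, 69.9% and 21.1%.

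**Figure D1:**
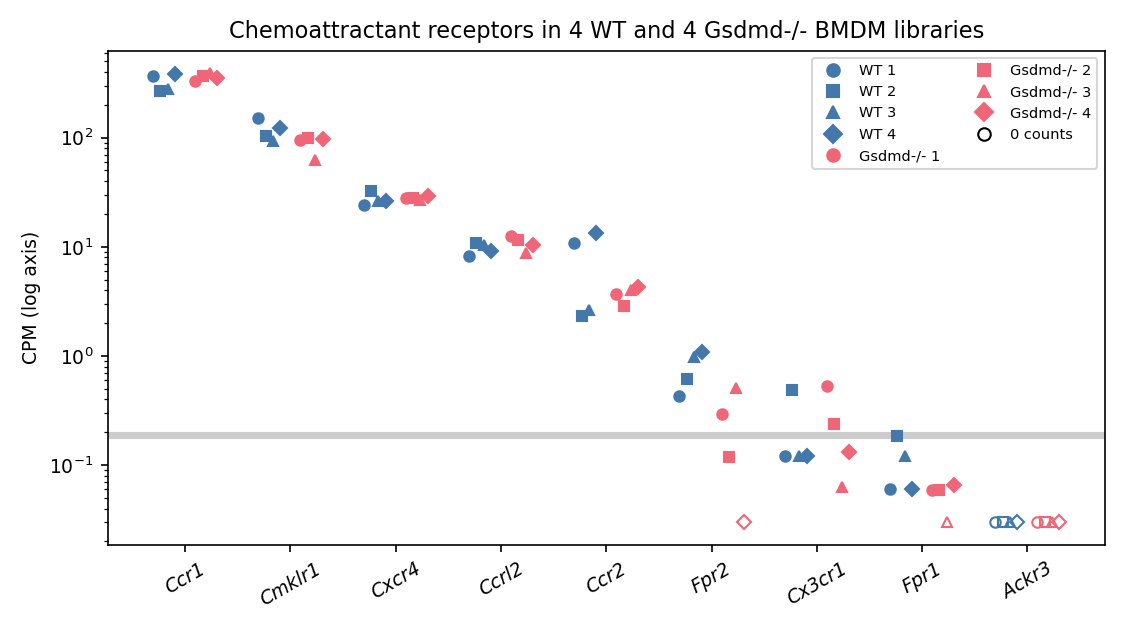
CPM (log axis) of the 9 receptor genes in each library, WT in blue and Gsdmd-/- in red, with 1 symbol shape per replicate number, open symbols at the bottom for 0 counts and a grey band for the limit of 3 counts (0.177 to 0.199 CPM). The members span from Ccr1, between 266 and 389 CPM, to Ackr3, with 0 counts in all 8 libraries, and in Ccr2 the WT libraries split into 2 high and 2 low values around the Gsdmd-/- libraries.

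Of the 9 members, 5 had enough counts to be tested (Ccr1, Ccr2, Cxcr4, Ccrl2 and Cmklr1) and 4 did not (Fpr1, Fpr2, Cx3cr1 and Ackr3). None of the 5 had an adjusted p under 0.05 in the edgeR quasi-likelihood test, where 0.349% of all 12911 genes tested passed, and 1, Cmklr1, had an unadjusted p under 0.05, where 12% of all genes tested did. DESeq2, the exact test of edgeR and limma voom also called 0 members at an adjusted p under 0.05. At a looser cutoff (unadjusted p under 0.05 with a log2FC of 0.5 or more in size), 0 members were higher and 0 were lower, while 1.54% of all genes tested were higher and 3.28% were lower. The libraries of the genotypes overlapped for all 5, whereas 7.6% of all genes tested showed no overlap. Of the 5 members, 3 had a log2FC above 0 and 2 below 0, with a median of 0.044, and the median of all genes tested was -0.0068. In bulk RNA, fewer cells of a type and less RNA per cell cannot be told apart, which holds for every receptor below.

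Ccr1 (ENSMUSG00000025804, chromosome 9 from 123962124 to 123968692, GRCm38) had the highest level of the 9. Its level was 370, 266, 278 and 382 CPM in WT 1 to 4 and 333, 366, 389 and 354 CPM in Gsdmd-/- 1 to 4. WT 2 and WT 3 were the lowest of the 8 libraries, and WT 1 and WT 4 lay among the Gsdmd-/- libraries. The log2FC of Ccr1 was 0.15 (standard error 0.128, 95% interval -0.13 to 0.44, edgeR adjusted p = 0.691), and without WT 2 and WT 3 it turned to -0.064 (adjusted p = 0.851). The coefficient of variation was 18.6% in WT and 6.52% in Gsdmd-/- libraries.

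Ccr2 (ENSMUSG00000049103, chromosome 9 from 124101950 to 124113557) varied most between libraries among the tested members. Its counts were 177, 38, 43 and 221 in WT 1 to 4 and 63, 49, 63 and 65 in Gsdmd-/- 1 to 4, which is 10.8, 2.32, 2.63 and 13.4 CPM in WT and between 2.90 and 4.31 CPM in Gsdmd-/- libraries. WT 1 and WT 4 lay above and WT 2 and WT 3 below every Gsdmd-/- library, so that the WT range enclosed the Gsdmd-/- range. The mean was 7.29 ± 5.67 CPM in WT and 3.73 ± 0.606 CPM in Gsdmd-/- libraries (SD, n = 4 each), a coefficient of variation of 77.8% against 16.2%. The log2FC was -0.97 (standard error 0.516, 95% interval -2.11 to 0.18, edgeR adjusted p = 0.507). Without WT 2 and WT 3, the lowest libraries for this gene, it was -1.70 and passed (adjusted p = 0.00356), while without WT 4 it was -0.49 (adjusted p = 0.576). With all 8 libraries the log2FC of Ccr2 was -0.57 with limma voom and -0.65 with the replicate block (adjusted p = 0.75 and 0.644). The size of the genotype difference of Ccr2 therefore rested on which WT libraries were counted and on the method.

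The genes whose log2 CPM followed Ccr2 most closely over the 8 libraries, among 12036 genes with a mean of at least 1 CPM, were Jaml (Pearson r 0.987), Acap1 (r 0.986) and Pdcd1lg2 (r 0.986), which encode a leukocyte adhesion molecule, a regulator of the small GTPase Arf6 and the checkpoint ligand PD-L2. Over the 6 libraries without WT 2 and WT 3 the r values were 0.986, 0.982 and 0.997. The libraries share the split of WT, so these values describe likeness and carry no test. Jaml was at 9.25, 3.06, 3.05 and 14.5 CPM in WT 1 to 4 and between 3.43 and 5.04 CPM in Gsdmd-/- libraries, which is the arrangement seen for Ccr2.

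Ly6c2, a marker of the classical monocytes that carry CCR2, moved with Ccr2 among the WT libraries, with 35.5, 1.53, 0.427 and 30.3 CPM in WT 1 to 4. In Gsdmd-/- 1 to 4 it was at 22.9, 19.8, 19.2 and 15.4 CPM, between the WT pairs. In Ccr2 the Gsdmd-/- libraries also lay between the pairs, but all of them nearer to WT 2 and WT 3 in CPM. Ly6c2 had a log2FC of 0.19 (standard error 0.871, edgeR adjusted p = 0.953), and without WT 2 and WT 3 of -0.77 (adjusted p = 0.0489). With limma voom the value was 1.87 and with the replicate block 1.21 (adjusted p = 0.533 and 0.720). The 6 monocyte markers, Ly6c2, Plac8, Ms4a4c, Hp and F13a1 among them, summed to between 4.70 and 41.0 CPM in WT and between 20.03 and 26.5 CPM in Gsdmd-/- libraries, and 4 of them were tested, none of them called. The part of monocytes in the Ccr2 values was not tested.

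**Figure D2:**
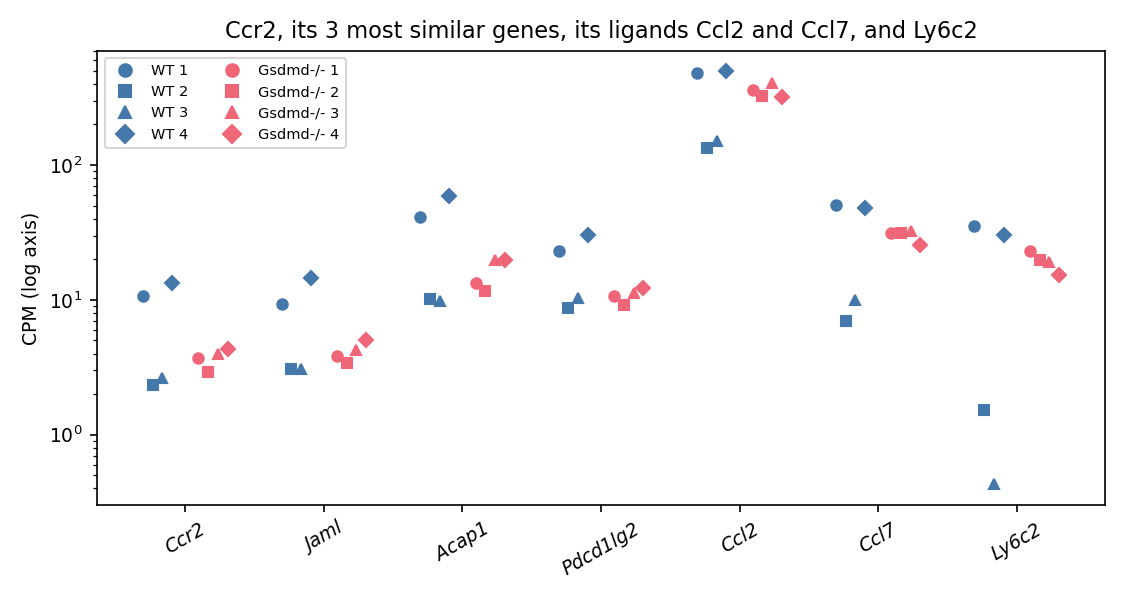
CPM (log axis) in each library of Ccr2, the 3 genes most like it (Jaml, Acap1, Pdcd1lg2), its ligands Ccl2 and Ccl7 and the monocyte marker Ly6c2, with WT in blue and Gsdmd-/- in red and 1 symbol shape per replicate number. WT 1 and WT 4 are above WT 2 and WT 3 in all 7 genes, while the Gsdmd-/- libraries lie low in Ccr2 (2.90 to 4.31 CPM) and in between in Ccl2 (321 to 404 CPM) and Ly6c2 (15.4 to 22.9 CPM).

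Cmklr1 (ENSMUSG00000042190, chromosome 5 from 113612354 to 113650426) had the lowest p of the 5 members that passed the filter on low counts. Its level was 153, 104, 93.7 and 124 CPM in WT 1 to 4 and 94.3, 99.5, 62.9 and 96.2 CPM in Gsdmd-/- 1 to 4. WT 1, WT 2 and WT 4 were above every Gsdmd-/- library, and WT 3 lay within the Gsdmd-/- range. Its mean was 118 ± 26.0 CPM in WT and 88.2 ± 17.0 CPM in Gsdmd-/- libraries (SD, n = 4 each), and the log2FC of -0.43 had a standard error of 0.178 (95% interval -0.82 to -0.031, unadjusted p = 0.0372, edgeR adjusted p = 0.380). The value moved to -0.28 without WT 1, to -0.29 without Gsdmd-/- 3 and to -0.65 without WT 2 and WT 3, and its adjusted p was between 0.133 and 0.622 over the 17 alternatives. Sdc3 (r 0.983), a syndecan, Dusp4 (r 0.977), a MAP kinase phosphatase, and Crtc3 (r 0.974), a CREB coactivator, were most like it over the 8 libraries.

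Cxcr4 (ENSMUSG00000045382, chromosome 1 from 128588199 to 128592293) had the smallest spread over the 8 libraries relative to its mean among the tested members. It was at 24.0, 32.6, 26.3 and 26.5 CPM in WT 1 to 4 and at 28.3, 28.2, 27.0 and 29.5 CPM in Gsdmd-/- 1 to 4. The Gsdmd-/- libraries lay within the WT range, with WT 2 the highest and WT 1 the lowest library. The log2FC was 0.044 (standard error 0.106, 95% interval -0.19 to 0.28, edgeR adjusted p = 0.903), an interval that runs from 0.876-fold to 1.21-fold.

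Ccrl2 (ENSMUSG00000043953, chromosome 9 from 111054486 to 111057519) was at 8.16, 10.8, 10.3 and 9.19 CPM in WT 1 to 4 and at 12.4, 11.6, 8.82 and 10.4 CPM in Gsdmd-/- 1 to 4. Gsdmd-/- 1 and 2 were the highest libraries and WT 1 the lowest, with the others mixed. The log2FC was 0.17 (standard error 0.145, 95% interval -0.15 to 0.49, edgeR adjusted p = 0.696). Ccrl2 and Cmklr1, whose products share the ligand chemerin, thus had fold changes of opposite sign, neither of them called.

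The closest genes to the other members in pattern were Smad2 (r 0.993), Actr2 (r 0.986) and Alg9 (r 0.984) for Ccr1, Lrrc56 (r 0.956), Zfp260 (r 0.914) and Slc7a4 (r 0.898) for Cxcr4, and Gaa (r 0.925), Gm5530 (r 0.923) and 1110051M20Rik (r 0.921) for Ccrl2. For Ccr1 the r values fell to 0.940, 0.882 and 0.919 over the 6 libraries without WT 2 and WT 3.

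The formyl peptide receptor genes were at or near the limit of detection. Fpr2 (ENSMUSG00000052270, chromosome 17 from 17887824 to 17893952) had 7, 10, 16 and 18 counts in WT 1 to 4 and 5, 2, 8 and 0 counts in Gsdmd-/- 1 to 4, which is 0.426 to 1.10 CPM and 0 to 0.507 CPM. WT 2, WT 3 and WT 4 were above every Gsdmd-/- library, and WT 1 was below Gsdmd-/- 3. It did not pass the filter on low counts, and in the fit without a filter its log2FC was -1.69 (standard error 0.620, unadjusted p = 0.0127, edgeR adjusted p = 0.392). With a single library left out it passed the filter 5 times, and its log2FC ran from -1.33 without Gsdmd-/- 4 to -2.39 without Gsdmd-/- 3, and it met the looser cutoff in 4 of them (adjusted p from 0.238 to 0.585 over the 5). Of the 50-base windows of its transcripts, 31.5% also occur in transcripts of other genes, among them Fpr3, which overlaps it on the same strand and had 0 counts, and Gm5966. Its counts are therefore uncertain. Fpr1 (ENSMUSG00000045551, chromosome 17 from 17876471 to 17883940), which starts 3884 bases from Fpr2 on the other strand, had 7 counts over the WT and 3 over the Gsdmd-/- libraries.

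Cx3cr1 (ENSMUSG00000052336, chromosome 9 from 119901616 to 120069879) had 2, 8, 2 and 2 counts in WT 1 to 4 and 9, 4, 1 and 2 counts in Gsdmd-/- 1 to 4, with the higher values in WT 2 and Gsdmd-/- 1. It overlaps the exons of Gm33858 on the opposite strand, which had 1 count in all. Ackr3 (ENSMUSG00000044337, chromosome 1 from 90203980 to 90216751) had 0 counts in all 8 libraries, so at this depth a level above 0.177 to 0.199 CPM would have been needed in each library to exceed what a count of 0 allows. No difference between the genotypes was detectable at this depth for Fpr1, Cx3cr1 and Ackr3.

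Neighbouring receptor genes had very different levels. Ccr1l1 and Ccr3 lie between Ccr1 and Ccr2 on chromosome 9 (GRCm38) and had 5 and 13 counts over the 8 libraries, while Ccr1 was at 121 and Ccr2 at 0.816 CPM per kilobase. Of the 50-base windows of Ccr2 transcripts, 1.91% occur in transcripts of other genes, and for Ccr1 none do.

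**Figure D3:**
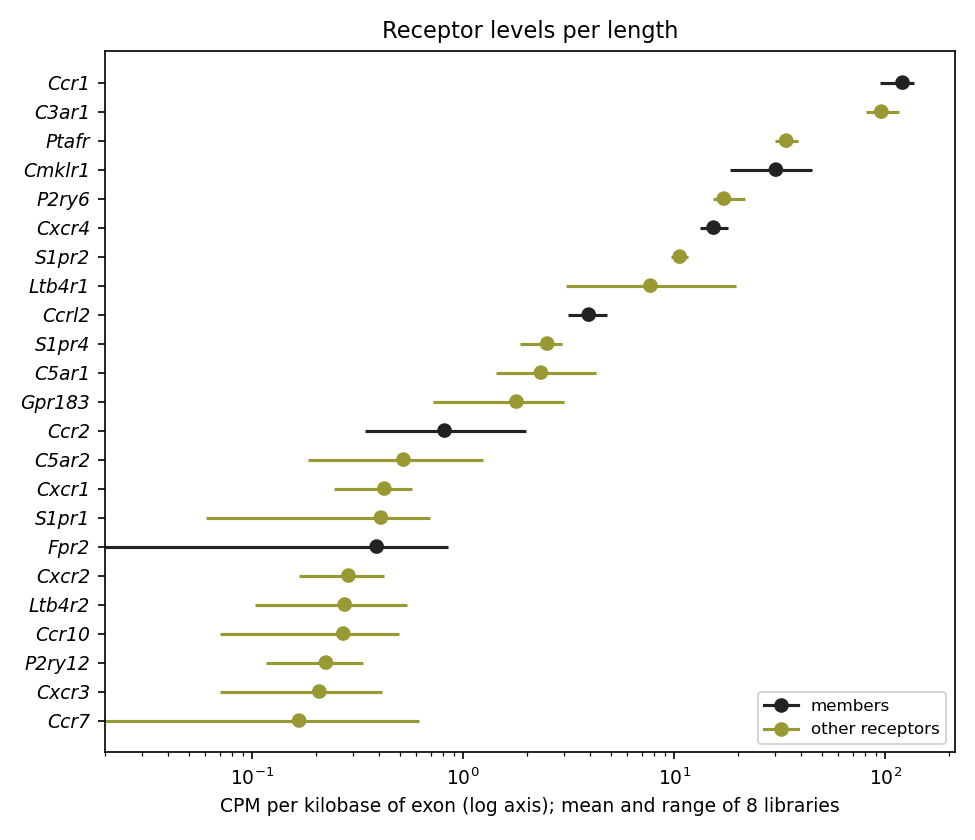
CPM per kilobase of exon (log axis) of 23 chemoattractant receptor genes with a mean of at least 0.1, as mean (point) and range (line) of the 8 libraries, members in black and other receptors in olive; lines that reach the left edge go down to 0. Ccr1, at 121 CPM per kilobase, is the highest, followed by the complement receptor gene C3ar1, and 6 of the 9 members are within the plot.

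Among other receptors for chemoattractants, 18 chemokine receptor genes and 19 receptor genes for complement peptides, lipids, formyl peptides and nucleotides were listed, of which 4 and 12 were tested. Of the first group none was called. Of the second, 3 were lower at the looser cutoff (C5ar1, C5ar2 and Ltb4r2) and 0 were higher, and 0 had an adjusted p under 0.05. Of all genes tested, 3.28% were lower and 1.54% were higher at this cutoff. C5ar2, which encodes the second C5a receptor, was at 2.19, 4.40, 2.63 and 1.89 CPM in WT 1 to 4 and at 0.652, 1.01, 0.951 and 1.13 CPM in Gsdmd-/- 1 to 4, and every Gsdmd-/- library was below every WT library. Libraries of the genotypes did not overlap in 7.6% of all genes tested. For C5ar2 the log2FC was -1.57 (standard error 0.324, edgeR adjusted p = 0.0904). It passed with DESeq2 (adjusted p = 0.00292), with the exact test of edgeR (0.00286), with no filter on low counts (0.0344) and without WT 4 (0.0498), and its adjusted p reached 0.335 without Gsdmd-/- 1, the highest over the 17 alternatives. C5ar1, the main C5a receptor gene, had a log2FC of -0.75 (adjusted p = 0.336) and the split of the WT libraries seen in Ccr2, with 9.43 and 11.0 CPM in WT 1 and WT 4 and 4.77 and 4.95 CPM in WT 2 and WT 3. Without WT 2 and WT 3 its log2FC was -1.19 (adjusted p = 0.0125). Ltb4r2, a leukotriene B4 receptor gene, had a log2FC of -0.85 (adjusted p = 0.390). The call at the looser cutoff held in 17 of 17 alternatives for C5ar2, in 12 of 17 for C5ar1 (lost without WT 1, WT 4, Gsdmd-/- 1 or Gsdmd-/- 3 and with limma voom) and in 8 of 16 for Ltb4r2 (lost without WT 3, WT 4, Gsdmd-/- 2, 3 or 4 or without both WT 2 and WT 3, with DESeq2 and with the replicate block). C3ar1, the receptor gene for complement C3a, and Ptafr, that for platelet-activating factor, had log2FC values of -0.20 and -0.22 (adjusted p = 0.507 and 0.295). Cxcr1, a CXC chemokine receptor gene, was at 0.423 CPM per kilobase (log2FC 0.37, adjusted p = 0.741). The median log2FC was -0.29 over the 4 and -0.23 over the 12 genes, beside -0.0068 over all genes tested.

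**Figure D4:**
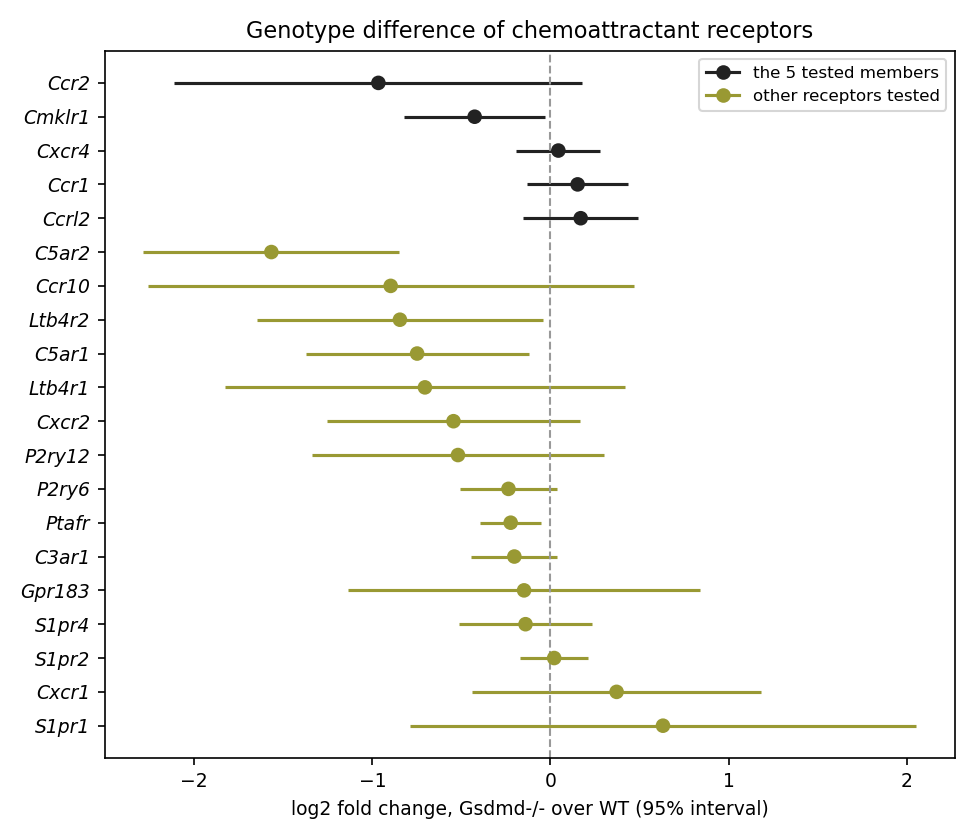
Log2 fold change of Gsdmd-/- over WT with its 95% interval from the edgeR quasi-likelihood fit, for the 5 tested members (black) and 15 other receptors (olive), with a dashed line at 0. The interval excludes 0 for 1 member (Cmklr1) and for 4 of the other receptors, and Ccr2 has the widest interval of the members. Of all genes tested, 12% had an unadjusted p under 0.05, the matching threshold.

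Per kilobase, the ligand genes Ccl6 and Anxa1 had higher mean levels (5818 and 1141 CPM) than any receptor listed. Of 20 ligand genes listed, 13 were tested, 0 were called in either direction and 9 had a log2FC above 0 (median 0.12). Ccl6, a ligand of CCR1, had the highest level per kilobase, with 9562 ± 470 CPM in WT and 11324 ± 883 CPM in Gsdmd-/- libraries (SD, n = 4 each) and no overlap (log2FC 0.24, standard error 0.0930, edgeR adjusted p = 0.342). Of all genes tested, 7.6% showed no overlap. Anxa1, whose product annexin A1 acts on the formyl peptide receptors, was at 3057 ± 768 and 3589 ± 281 CPM (SD, n = 4 each, log2FC 0.23, adjusted p = 0.616), while Fpr1 and Fpr2 were near 0. The chemerin gene Rarres2 had 6 counts and Cxcl12 had 13 counts over the 8 libraries, whereas their receptor genes Cmklr1 and Cxcr4 had 13491 and 3616 counts.

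Ccl2 and Ccl7, which are among the ligand genes of CCR2, were named after their values were seen. Ccl2 was at 482, 134, 150 and 495 CPM in WT 1 to 4 and at 359, 326, 404 and 321 CPM in Gsdmd-/- 1 to 4. As in Ly6c2, the Gsdmd-/- libraries lay between the WT pairs, and the log2FC was 0.16 (standard error 0.392, edgeR adjusted p = 0.905). Ccl7 had the same arrangement, with 50.4, 6.97, 9.95 and 48.1 CPM in WT 1 to 4 and 25.7 to 32.3 CPM in Gsdmd-/- libraries. Ccl12, another listed ligand gene named after its values were seen, did not, with 17, 4, 11 and 7 counts in WT 1 to 4.

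Of 28 genes that carry the signal from receptor to cytoskeleton, all 28 were tested, 1 was lower at the looser cutoff and 0 were higher, with 14 genes on each side of 0. Over all genes tested, 3.28% were lower and 1.54% were higher. Plcb3, a phospholipase C activated by G proteins, was lower (log2FC -0.50, standard error 0.140, edgeR adjusted p = 0.210), with 31.2 to 45.8 CPM in WT and 24.8 to 29.4 CPM in Gsdmd-/- libraries. That call, just past the cutoff, held in 8 of 17 alternatives and was lost without WT 2 (-0.42), WT 3 (-0.42), Gsdmd-/- 3 (-0.46) or Gsdmd-/- 4 (-0.49), with upper-quartile scaling, with no filter on low counts, with limma voom and with the replicate block (-0.49 to -0.48), and without both WT 2 and WT 3, where the log2FC was -0.23. The inhibitory G protein gene Gnai2 and the small GTPase gene Cdc42 had the highest levels, with 231 and 211 CPM per kilobase. Of 16 genes that switch receptors off, 15 were tested, 1 was higher and 1 was lower at the cutoff (1.54% and 3.28% of all genes tested). Rgs1, a GTPase activator that limits chemokine receptor signaling, was at 154, 105, 105 and 188 CPM in WT 1 to 4 and at 253, 270, 201 and 183 CPM in Gsdmd-/- 1 to 4 (log2FC 0.72, standard error 0.201, adjusted p = 0.210). Gsdmd-/- 4 lay below WT 4, and the other Gsdmd-/- libraries were above every WT library. Without WT 2 and WT 3 the log2FC of Rgs1 was 0.41 and the call was lost, and it held in the other 16 alternatives. Grk5, a receptor kinase, had a log2FC of -0.51 (standard error 0.131, adjusted p = 0.174) with no overlap (as in 7.6% of all genes tested), at 22.3 to 30.9 CPM in WT and 17.6 to 19.9 CPM in Gsdmd-/- libraries. Its call held in 8 of 17 alternatives and was lost without WT 2 (-0.44), WT 3 (-0.43), Gsdmd-/- 1 (-0.49) or Gsdmd-/- 4 (-0.48) and under the same 4 settings as that of Plcb3 (-0.50 to -0.49), and without both WT 2 and WT 3, where the log2FC was -0.27. The kinase gene Grk2 and the regulator gene Rgs2 had the highest levels of this list, with 37.2 and 35.2 CPM per kilobase.

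Over the 5 pathway lists, 11 of the 72 genes tested had an unadjusted p under 0.05 (15.3%, against 12% of all genes tested), 8 of them lower and 3 higher, and 0 had an adjusted p under 0.05 in the edgeR quasi-likelihood test or with limma voom. DESeq2 and the exact test of edgeR each called 4 of them, Rgs1, Grk5, C5ar2 and Prex1, a Rac activator that was named after its values were seen.

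The 10 neutrophil markers summed to between 7.15 and 10.9 CPM in WT and between 9.20 and 10.5 CPM in Gsdmd-/- libraries, with Ly6g and Retnlg at 0 counts. The 7 dendritic cell markers summed to between 2.49 and 5.05 CPM over all libraries, with Siglech at 0, the 5 lymphoid markers to at most 0.487 CPM, with Ncr1 at 0, and the 5 stromal markers to between 0.183 and 2.43 CPM. The mast cell list summed to between 10.7 and 71.8 CPM in WT and between 46.2 and 67.8 CPM in Gsdmd-/- libraries, and the endothelial list to between 27.8 and 69.4 CPM and between 48.5 and 80.9 CPM, with Mcpt4 and Tek at 0. Kit, which made up most of the first sum, was at 71.0, 11.4, 10.3 and 60.0 CPM in WT 1 to 4, and Kdr, most of the second, at 65.6, 23.6, 21.1 and 54.8 CPM, so both showed the split of the WT libraries seen in Ccr2. The other endothelial markers detected did not, with Cdh5 at 3.71, 5.38, 5.86 and 5.78 CPM and Pecam1 at 2, 9, 14 and 4 counts in WT 1 to 4. Cpa3, the other mast cell marker tested, had 11, 10, 4 and 26 counts in WT 1 to 4, with WT 1 and WT 2 nearly alike. Cdh5 was lower at the cutoff (log2FC -0.51, edgeR adjusted p = 0.402), a call that held in 9 of 17 alternatives and not without WT 2, WT 3, WT 4, Gsdmd-/- 1 or Gsdmd-/- 2 (-0.49 to -0.40), without both WT 2 and WT 3 (-0.38), with upper-quartile scaling (-0.50) or with no filter on low counts (-0.49). The 8 macrophage markers summed to between 15340 and 23464 CPM in WT and between 19408 and 23404 CPM in Gsdmd-/- libraries, mostly from Lyz2, and none of them was called. WT 1 and WT 4 were above WT 2 and WT 3 in Lyz2, Cd68, Csf1r, Itgam, Cd14 and Fcgr1 (36.2, 7.09, 6.66 and 40.7 CPM in WT 1 to 4). The reverse held for Mertk (141, 250, 212 and 101 CPM) and Adgre1. Adgre1 was lower in Gsdmd-/- libraries without overlap (log2FC -0.24, edgeR adjusted p = 0.310), where 7.6% of all genes tested did not overlap. All but Lyz2 and Cd68 were named after their values were seen. The part of these cell types in the receptor values was not tested.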

How the data were processed

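RNA from untreated BMDMs was extracted with Trizol and made into Illumina TruSeq libraries. The authors deposited the read counts per gene, not normalized, for 4 WT and 4 Gsdmd-/- libraries. Per the labels the genome build was mm10, and the aligner, counter and annotation are not given in the sources used here. Of 54532 genes, 54409 were found in GENCODE M21 (GRCm38), which gave positions and exon lengths. Promoters came from RefSeq (GRCm38.p6), where all 9 members matched.

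Counts were scaled by TMM, filtered with filterByExpr and tested two-sided with the quasi-likelihood test of edgeR 4.0.16 (R 4.3.3), genotype being the only term, with Benjamini-Hochberg adjustment over 12911 genes. Log2 CPM used a prior count of 2. DESeq2 1.42.0, limma voom (limma 3.58.1) and the other alternatives are described at the end. Tests were checked on simulated data.

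Named were the members, Gsdmd, listed genes that passed a cutoff, the 2 genes of each list with the highest level per length (Ly6c2, Kit and Kdr among them, though some such marker genes are given only within the sums), and for each tested member the 3 genes of highest Pearson r. The looser cutoff is that of the study. A listed gene that the rule names is not reported here, though list counts and sums include it. Pecam1, beside others marked so in the text, was named after its values were seen. Members and lists were chosen with earlier results of these data known.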

Additional observations from a re-analysis of the deposited data

Results flagged for a closer look

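Within a genotype, 1 library lay far from the other 3 in 8 of the genes named, over 106 groups of 4 looked at, and chance gives about 1 in 20 groups. That rate is for continuous values and does not hold for small tied counts, as in Cx3cr1 and Rarres2. Cx3cr1 was at 0.489 CPM in WT 2 and at 0.122 CPM in the other WT libraries, which is 8 counts against 2 in each. Cmklr1 was at 62.9 CPM in Gsdmd-/- 3, against 94.3 to 99.5 CPM in the other Gsdmd-/- libraries, and Dusp4, one of the genes most like it, was at 44.3 CPM in the same library, against 55.9 to 57.5 CPM. 1110051M20Rik, one of the genes most like Ccrl2, was at 5.54 CPM in WT 1, against 8.03 to 8.19 CPM in the other WT libraries. Cdc42 was at 718 CPM in Gsdmd-/- 3, against 647 to 651 CPM in the other Gsdmd-/- libraries, and Ccl7 at 25.7 CPM in Gsdmd-/- 4, against 31.3 to 32.3 CPM. In WT 4, Hp was at 3.23 CPM, against 1.04 to 1.34 CPM in the other WT libraries, and Rarres2 at 0.243 CPM, which is 4 counts against 0 in each.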

How the results depend on the processing

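Among the 17 alternatives to the fit over all 8 libraries, no member passed an adjusted p of 0.05, with 1 exception. Ccr2 passed without WT 2 and WT 3, a fit that called 1 member, 8 pathway list genes and 161 genes in all. The monocyte marker Ly6c2 also passed in that fit (edgeR adjusted p = 0.0489) and is not among the 8, which leave out the marker lists. No filter on low counts gave 109 genes (1204 at the looser cutoff) and 1 pathway list gene, with 2 members at that cutoff (Ccr2 and Fpr2). DESeq2 gave 292 genes, 1 member at the cutoff (Ccr2) and 4 pathway list genes. The exact test of edgeR gave 244 genes and 4 pathway list genes. Asking for a log2FC of 1 or more in size left 199 genes at the cutoff. Libraries of the same replicate number did not deviate together (r of deviations from -0.201 to 0.182), and the replicate block gave 25 genes in place of 45 and 3 pathway list genes at the cutoff in place of 6. The marker Cdh5, at the cutoff in both fits, is not among these. Without WT 2 and WT 3, 2 members (Ccr2 and Cmklr1) were at the cutoff. With 1 library left out, all genes called ran from 14 to 84 by adjusted p and from 469 to 1022 at the cutoff. In the same fits, members at the cutoff ran from 0 to 2 (Ccr2, Cmklr1 or Fpr2). Pathway list genes ran from 0 to 2 by adjusted p and from 3 to 7 at the cutoff. The sign turned without WT 2 and WT 3 for Ccr1 (-0.064), Anxa1 (-0.031) and Ly6c2 (-0.77). With 1 library left out, Cxcr4 ran from -0.014 (without WT 1) to 0.14 and Ly6c2 from -0.21 (without WT 3, and -0.19 without WT 2) to 0.85. The causes were not tested. Gsdmd kept its call in all 17 (log2FC -2.39 to -2.08). Under RLE or upper-quartile scaling the median of all genes was -0.0099 and 0.0044. Depth limits Fpr1, Fpr2, Cx3cr1 and Ackr3.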
